A study of Mus musculus with 9 samples.

Results

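The 48 genes described here encode the extracellular and membrane parts of Wnt signalling: 19 Wnt ligands, 15 receptors and co-receptors, 8 secreted antagonists and their relatives, 4 R-spondins, and the 2 proteins Porcn and Wls that ready ligands for secretion. They were taken by gene symbol from a list of the family, and all 48 were found among the 54532 genes of the count table. Bulk RNA-seq was made from mouse prostates that differed in Srd5a2, which encodes a steroid reductase that makes dihydrotestosterone from testosterone. The 3 genotypes were wild type (WT), heterozygous (Het, Srd5a2+/-) and null (KO, Srd5a2-/-), with 3 libraries each. The series title names a stromal route that runs from SRD5A2 over WNT5A and LEF1 to IGF1, and Wnt5a is therefore set beside the other ligands.

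The groups differ, as far as the labels state, in 1 allele pair only. Het males were mated with WT C57BL6 females, and null males came from the third generation. The null allele is carried by every cell, so the comparison is not limited to stroma. No treatment is named, and the sources used here give neither age nor lobe, nor whether WT mice were littermates. Whether the 3 libraries of a genotype are 3 animals is not stated either, and the p-values therefore reflect only the spread between libraries, which may be technical.

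Wnt proteins are secreted lipid-modified growth factors. Porcn adds the lipid and Wls carries the ligand to the cell surface, where it meets a Frizzled receptor together with Lrp5 or Lrp6 (the beta-catenin branch) or with Ror1, Ror2 or Ryk (branches that act without beta-catenin). Secreted Frizzled-related proteins (Sfrp) and Wif1 bind the ligand, the Dickkopf (Dkk) family acts mainly at the Lrp co-receptors, and R-spondins strengthen the signal by keeping Frizzled receptors on the membrane. In the prostate, Wnt5a is known as a ligand of mesenchyme and stroma that acts mostly through the branches without beta-catenin.

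Libraries held 16233392 to 24017791 counts. Srd5a2 itself stood at 0.511 to 1.15 CPM (counts scaled to an equal library total and corrected for library composition) in KO, 2.30 to 8.81 in WT and 2.37 to 5.19 in Het, so the libraries labelled KO were the lowest. Libraries of a genotype differed widely in tissue content. Sbp, a secretion of the ventral prostate, was under 20 CPM in 3 libraries (WT 1, WT 3 and Het 2) and at 34300 CPM or more in the other 6, and summed seminal vesicle markers ran from 6590 CPM in Het 1 to 359000 in Het 2. Krt8, a luminal keratin, was at 441 to 449 CPM in WT, 428 to 548 in Het and 461 to 515 in KO.

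Of the 48 genes, 42 had a read in at least 1 library. Wnt3, Wnt7a, Wnt8a, Wnt8b, Dkk4 and Rspo4 had 0 reads in all 9, and Wnt1 had 3 reads, all in WT 1. A count of 0 allows up to 3 reads per library, which covers counting error only. The low-count filter kept 40 genes for testing: 14 ligands, all 15 receptors, 6 antagonists, 3 R-spondins and both secretion genes. Besides the 6 without reads, Wnt1 and Sfrp4 were left out. A gene can pass that filter through 1 genotype alone, so counts over the 40 tested genes describe those 40 and not the whole family.

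Levels between genes are compared in FPKM, the authors' values per kilobase of gene length. Wnt4, a ligand of epithelial and mesenchymal development, led the ligands at a mean of 12.8 FPKM over the 9 libraries (range 3.40 to 28.0), followed by Wnt7b, an epithelial ligand, at 8.32 (6.78 to 10.1). Wnt5a came next at 2.94 FPKM (0.810 to 4.81), and then Wnt2 (1.93), Wnt6 (1.75), Wnt9a (1.28) and Wnt5b (1.13). The other 12 ligands averaged under 1 FPKM. The ranges of Wnt4 and Wnt7b overlapped, as did those of Wnt5a, Wnt2, Wnt6, Wnt9a and Wnt5b among themselves, so among these 7 only the step from Wnt7b down to Wnt5a separated neighbours without overlap.

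**Figure D1:**
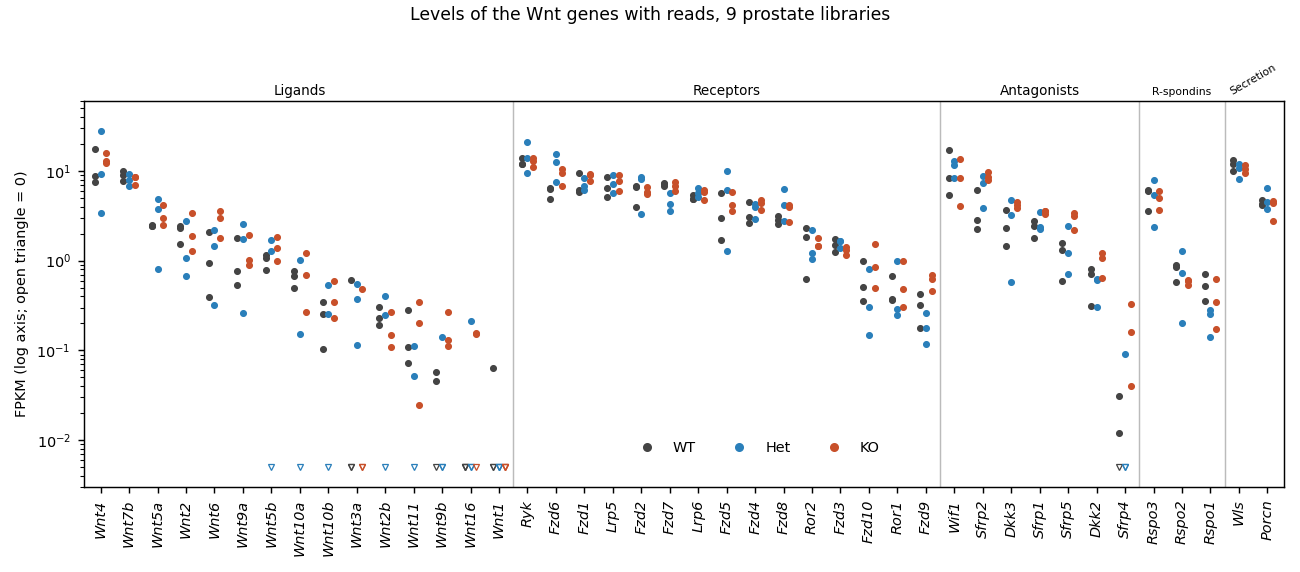
FPKM (log axis) of the 42 genes with reads, 1 point per library in 3 colours by genotype, grouped by role and ordered by mean, with open triangles for values of 0. Ligands spread from a mean of 12.8 FPKM for Wnt4 to values of 0, while all 15 receptors had reads in every library.

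The receptor side was broader and more even. Ryk, a receptor of the branches without beta-catenin, averaged 13.3 FPKM (9.54 to 20.8), and Fzd6 8.87 (4.86 to 15.5). In CPM, Ryk was at 56.1, 55.2 and 64.0 in WT, 43.1, 94.3 and 63.5 in Het, and 65.1, 50.5 and 59.8 in KO, with Het libraries at both ends. Fzd1 (7.64), Lrp5 (7.20), Fzd2 (6.15), Fzd7 (6.13) and Lrp6 (5.46) followed, and Fzd10 (0.668), Ror1 (0.523) and Fzd9 (0.361) were the lowest. Of the partner receptors often named for Wnt5a, Ror2 averaged 1.55 FPKM and Ror1 0.523, both below Ryk in each library.

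Among the antagonists Wif1 averaged 9.96 FPKM (4.10 to 17.0), Sfrp2 6.43 (2.26 to 9.78), Dkk3 3.19, Sfrp1 2.85, Sfrp5 1.84 and Dkk2 0.699. Wif1 ranked first among the 8 in 7 libraries, all 3 WT and all 3 Het among them. Sfrp2 ranked first in KO 2 and KO 3, where Wif1 ranked 2 and 3. Library values of Wif1 in Het were 28.1, 31.3 and 20.6 CPM.

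Rspo3 made up 73.3% to 84.8% of the summed R-spondin FPKM. It was at 11.3, 19.3 and 18.9 CPM in WT, 7.34, 24.6 and 16.7 in Het, and 19, 11.6 and 15.9 in KO. Rspo2 was at 3.08, 4.74 and 4.4 CPM in WT, 1.03, 6.57 and 3.75 in Het, and 2.80, 3.13 and 3.14 in KO. Both R-spondins were lowest in Het 1 and highest in Het 2. For secretion, Wls averaged 10.9 FPKM and Porcn 4.4. Wls was at 121, 89.3 and 108 CPM in WT, 71.6, 106 and 94.9 in Het, and 85.8, 92.9 and 105 in KO. Porcn was at 12.9, 14.5 and 12.9 CPM in WT, 13.5, 19.3 and 11.5 in Het, and 13.5, 13.9 and 8.52 in KO, and the 3 genotypes overlapped for both genes.

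Summed over the 19 ligands, FPKM was 24.8, 25.3 and 38.2 in WT 1 to 3, 15.5, 51.4 and 27.4 in Het 1 to 3, and 32.7, 38.7 and 32.0 in KO 1 to 3. Het libraries were both the lowest and the highest. Wnt4 and Wnt7b traded places as the largest share: Wnt4 held 21.9% of the ligand sum in Het 1 and 54.5% in Het 2, where Wnt7b held 43.7% and 18%. Wnt7b itself was not lower in Het 2, at 9.23 FPKM against 6.78 in Het 1, while Wnt4 was at 28.0 against 3.40. Wnt5a held 5.22% (Het 1) to 13.8% (Het 3) and ranked from 3 to 5 among the ligands. Receptor sums were narrower, at 59.7 to 67.9 FPKM in WT, 74.1 to 79.7 in Het and 67.9 to 80.3 in KO.

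**Figure D2:**
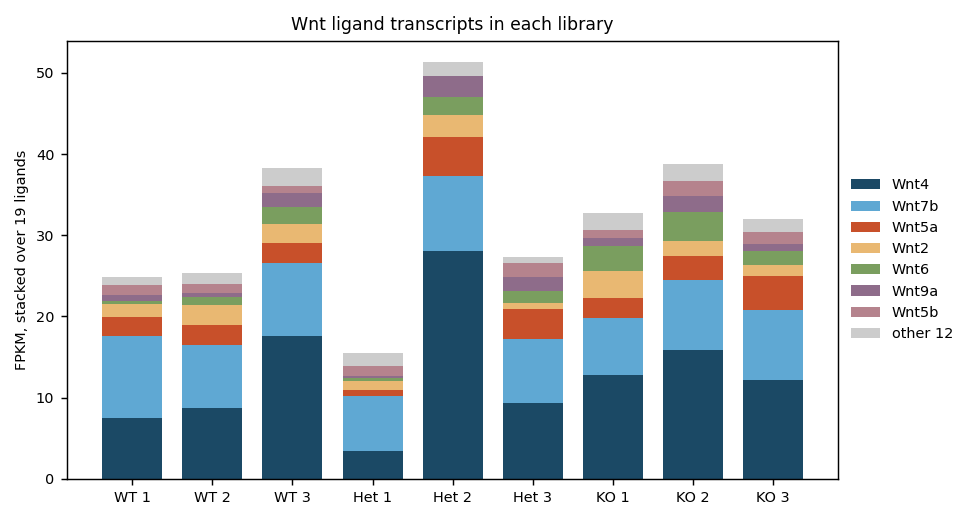
FPKM of the Wnt ligands stacked for each of the 9 libraries (vertical axis from 0, FPKM), with the 7 most abundant ligands in colour and the other 12 in grey. Wnt4 and Wnt7b form most of each bar, and the bar heights run from 15.5 in Het 1 to 51.4 in Het 2.

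Wnt5a (ENSMUSG00000021994, chromosome 14, 28504750 to 28527448, plus strand) stood at 19.5, 19.9 and 19.5 CPM in WT 1 to 3, 6.32, 37.6 and 29.9 in Het 1 to 3, and 20.2, 23.4 and 33.8 in KO 1 to 3. The 3 WT libraries were nearly equal, the KO libraries all lay above them with the nearest by a narrow margin, and the Het libraries lay on both sides. The log2 fold change (log2FC) was 0.39 in KO against WT (95% interval -0.78 to 1.57), 0.33 in Het against WT (-0.85 to 1.5) and 0.07 in KO against Het (-1.10 to 1.24), with edgeR adjusted p of 1, 0.887 and 0.997. In this model of all 9 libraries the intervals allow changes of more than 2-fold upward in KO or Het against WT. Their width depends on Het 1. For KO against WT the SE was 0.52 there, 0.21 with only those 2 genotypes and 0.22 without Het 1, each at a log2FC of 0.39. For Het against WT, leaving out Het 1 gave 0.78 (SE 0.24, edgeR unadjusted p = 0.00812, adjusted p = 0.131). With a seminal vesicle marker score as a model term the KO against WT value turned to -0.38, and without Het 2 the Het against WT value turned to -0.14. In KO against Het it was -0.38 without Het 1 and -0.16 without KO 3. The closest relative, Wnt5b, was at 2.12 to 4.89 CPM in 8 libraries and at 0 reads in Het 2, the library highest in Wnt5a.

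In KO against WT, the genes that stood apart most were 3 secreted Frizzled-related proteins and 1 Frizzled, and none passed the test over all genes. Sfrp2, a Wnt-binding protein of stromal fibroblasts, had a mean of 19.4 ± 2.07 CPM over the KO libraries against 8.23 ± 4.53 over the WT libraries (SD, n = 3 each). Sfrp5, a relative expressed in several epithelia, averaged 5.64 ± 1.16 against 2.26 ± 1.01 CPM, and Sfrp1, another relative, 15.6 ± 0.496 against 10.5 ± 2.20 CPM. Fzd6, a receptor best known for tissue polarity, averaged 43.8 ± 8.94 against 28.9 ± 4.10 CPM. In bulk tissue a change in the number of cells of a type and a change in RNA per cell cannot be told apart.

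Library by library, Sfrp2 (chromosome 3, 83766321 to 83774316) was at 5.02, 6.25 and 13.4 CPM in WT, 8.37, 19.1 and 16.1 in Het, and 21.7, 18.8 and 17.7 in KO. All 3 KO libraries lay above all 3 WT libraries, and Het libraries spread across both. The KO against WT log2FC was 1.24 (SE 0.41, 95% interval 0.32 to 2.16, edgeR unadjusted p = 0.0132, adjusted p = 1). For Sfrp5 (chromosome 19, 42197971 to 42202252) the values were 1.15, 3.10 and 2.54 CPM in WT, 1.35, 2.30 and 4.63 in Het, and 4.33, 6.54 and 6.06 in KO. KO again lay wholly above WT, with a log2FC of 1.31 (SE 0.57, 0.05 to 2.58, edgeR adjusted p = 1). Sfrp1 (chromosome 8, 23411502 to 23449632) was at 8.10, 12.5 and 10.8 CPM in WT, 9.72, 10.5 and 15.5 in Het, and 15.1, 15.8 and 16.0 in KO, a log2FC of 0.58 (SE 0.26, -0.01 to 1.17). The 3 KO libraries differed by less than 1 CPM for Sfrp1.

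**Figure D3:**
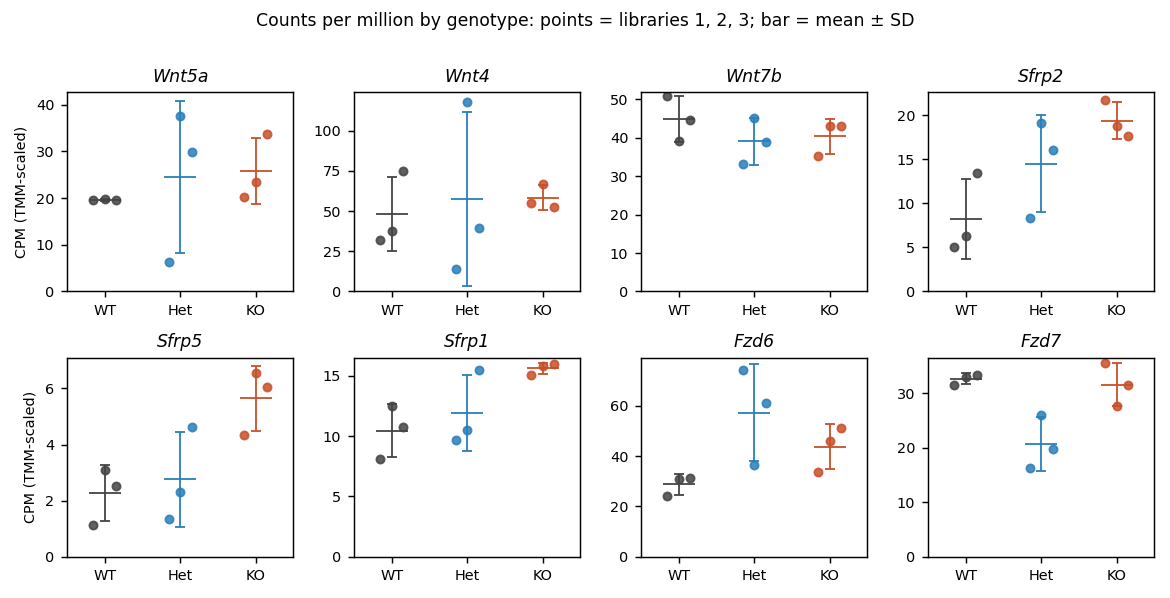
TMM-scaled CPM (vertical axes from 0) of 8 genes by genotype, with 1 point per library and the mean ± SD as a bar (n = 3). For Sfrp2, Sfrp5, Sfrp1 and Fzd6 the KO points lie above the WT points, and for Fzd7 the Het points lie below both.

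Upstream sequence was at hand for Sfrp2 and Sfrp5, and for Fzd7, which set Het apart. The 250 bases before each RefSeq start (GRCm38.p6) are shown because the route in the title holds LEF1 and an androgen-making enzyme. The windows were searched on both strands for a LEF/TCF core (CTTTGA), an androgen receptor half-site (TGTTCT) and a GC box (GGGCGG). Capitals mark GC boxes on either strand, the only motif of the 3 found. The windows are chr3:83766071-83766320 (plus strand) for Sfrp2, chr19:42202253-42202502 (minus strand) for Sfrp5 and chr1:59481897-59482146 (plus strand) for Fzd7, each printed 5′ to 3′ along its gene. The RefSeq start of Fzd7 lies upstream of the gene start in the deposited table, 59482424, so that window does not adjoin the counted gene. Of the 3 windows, 2 ran on into a GENCODE transcript on the same strand.
Sfrp2: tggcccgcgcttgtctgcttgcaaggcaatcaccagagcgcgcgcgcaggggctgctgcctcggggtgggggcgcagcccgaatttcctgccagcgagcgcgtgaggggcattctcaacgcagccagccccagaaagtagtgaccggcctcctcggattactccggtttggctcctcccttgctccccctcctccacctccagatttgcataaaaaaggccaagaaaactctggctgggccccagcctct
Sfrp5: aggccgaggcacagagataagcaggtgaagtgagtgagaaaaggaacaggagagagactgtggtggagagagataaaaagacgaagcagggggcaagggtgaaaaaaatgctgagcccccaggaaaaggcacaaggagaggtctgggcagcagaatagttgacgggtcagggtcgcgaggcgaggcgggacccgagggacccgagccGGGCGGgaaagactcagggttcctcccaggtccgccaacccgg
Fzd7: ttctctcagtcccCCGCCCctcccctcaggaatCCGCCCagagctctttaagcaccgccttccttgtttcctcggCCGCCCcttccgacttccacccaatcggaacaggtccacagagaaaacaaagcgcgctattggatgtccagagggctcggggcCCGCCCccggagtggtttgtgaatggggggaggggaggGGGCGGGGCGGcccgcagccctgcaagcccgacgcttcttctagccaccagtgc
Fzd7 held 6 GC boxes, the last pair overlapping in part, Sfrp5 held 1 and Sfrp2 none. Windows were found for 31 of the 48 genes, 34 windows in all. The LEF/TCF core was in 11.8% of these (Fzd1, Ror1, Wnt11 and Wnt5b) and in 13.8% of all 32851 windows of that length. The half-site was in 8.82% (Dkk2, Wnt5b and Wnt8b) against 16.1%, and the GC box in 76.5% against 32.7%. A match is a run of letters and no evidence of binding, and a window without one says nothing of the factor.

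Fzd6 (chromosome 15, 39006034 to 39038188) was at 24.1, 31.1 and 31.4 CPM in WT, 74.4, 36.6 and 61.0 in Het, and 33.9, 46.0 and 51.4 in KO. WT libraries were the 3 lowest of the 9. The KO against WT log2FC was 0.60 (SE 0.26, 0.01 to 1.19, edgeR adjusted p = 1).

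Across the 40 tested genes edgeR called 0 in KO against WT at an adjusted p under 0.05, as it did over all genes (0% of 16836), and DESeq2 called 0 of the 38 it gave an adjusted p (0.085% of all genes). At an unadjusted p under 0.05 edgeR had 3 (7.5% of the 40, all higher: Sfrp2, Sfrp5 and Fzd6), where 3.57% of all genes tested passed, 2.2% higher and 1.37% lower. DESeq2 had 4 at that level (those 3 and Sfrp1), where 4.94% passed. KO lay wholly above WT for 8 of the 40 genes (20%: Dkk3, Fzd6, Fzd9, Sfrp1, Sfrp2, Sfrp5, Wnt5a and Wnt9b), where 8.14% of all genes did, and wholly below for 0, where 6.04% did. Wnt9b had 0, 6 and 4 reads in WT and 11, 9 and 24 in KO, so KO and Het libraries carried it past the filter. The nearest libraries of Wnt5a (20.2 against 19.9 CPM) and Fzd9 (1.10 against 0.993) lay close together. The edgeR count of 3 was 1 without KO 2 or without KO 3 and 6 without Het 1, and it was 0 with the skeletal muscle score in the model. With that score the KO against WT log2FC was 0.78 for Sfrp2 (SE 0.48), 0.88 for Sfrp5 (SE 0.84), 0.41 for Fzd6 (SE 0.39) and 0.48 for Sfrp1 (SE 0.39). With the seminal vesicle score it was 0.75 for Sfrp2 (SE 0.27), 0.88 for Sfrp5 (SE 0.65), 0.74 for Fzd6 (SE 0.29) and 0.45 for Sfrp1 (SE 0.31). For Sfrp2, Sfrp5 and Sfrp1 both scores gave values below those without them. Most skeletal muscle markers were higher in every KO library than in all other libraries but WT 3, so that score partly tracks genotype. In that fit the part of the score and the part of genotype cannot be told apart.

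By role, log2FC in KO against WT was above 0 for 11 of 14 ligands (median 0.31), 12 of 15 receptors (0.26) and 5 of 6 antagonists (0.72), and for 0 of 3 R-spondins (-0.43) and 0 of 2 secretion genes (-0.17). Wif1 was the 1 antagonist below 0, at 33.9, 20.6 and 10.2 CPM in KO against 13.4, 42.3 and 20.6 in WT, 2 sets that overlap. Over all 40 the median was 0.29 with 28 above 0 (70%), where all genes tested had a median of 0.01 and 50.6% above 0. That median was 0.15 without WT 1, 0.17 without KO 3 and 0.12 with the skeletal muscle score in the model, and it turned to -0.22 with the seminal vesicle score. Wnt16 had 0 reads in each WT library and in KO 1, with 12 in KO 2 and 13 in KO 3, so KO and WT overlapped (edgeR unadjusted p = 0.0721). Pooled over KO, its 25 reads were at least 9.25-fold above WT, with WT as a group set at 3 counts. That bound describes the pooled reads and not each KO library, and it covers counting error only. Without WT reads, Wnt16 could pass the filter only through Het and KO libraries. Its rise over WT was therefore fixed by the filter and supports no difference. The median stayed at 0.29 with Wnt16 at that bound.

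**Figure D4:**
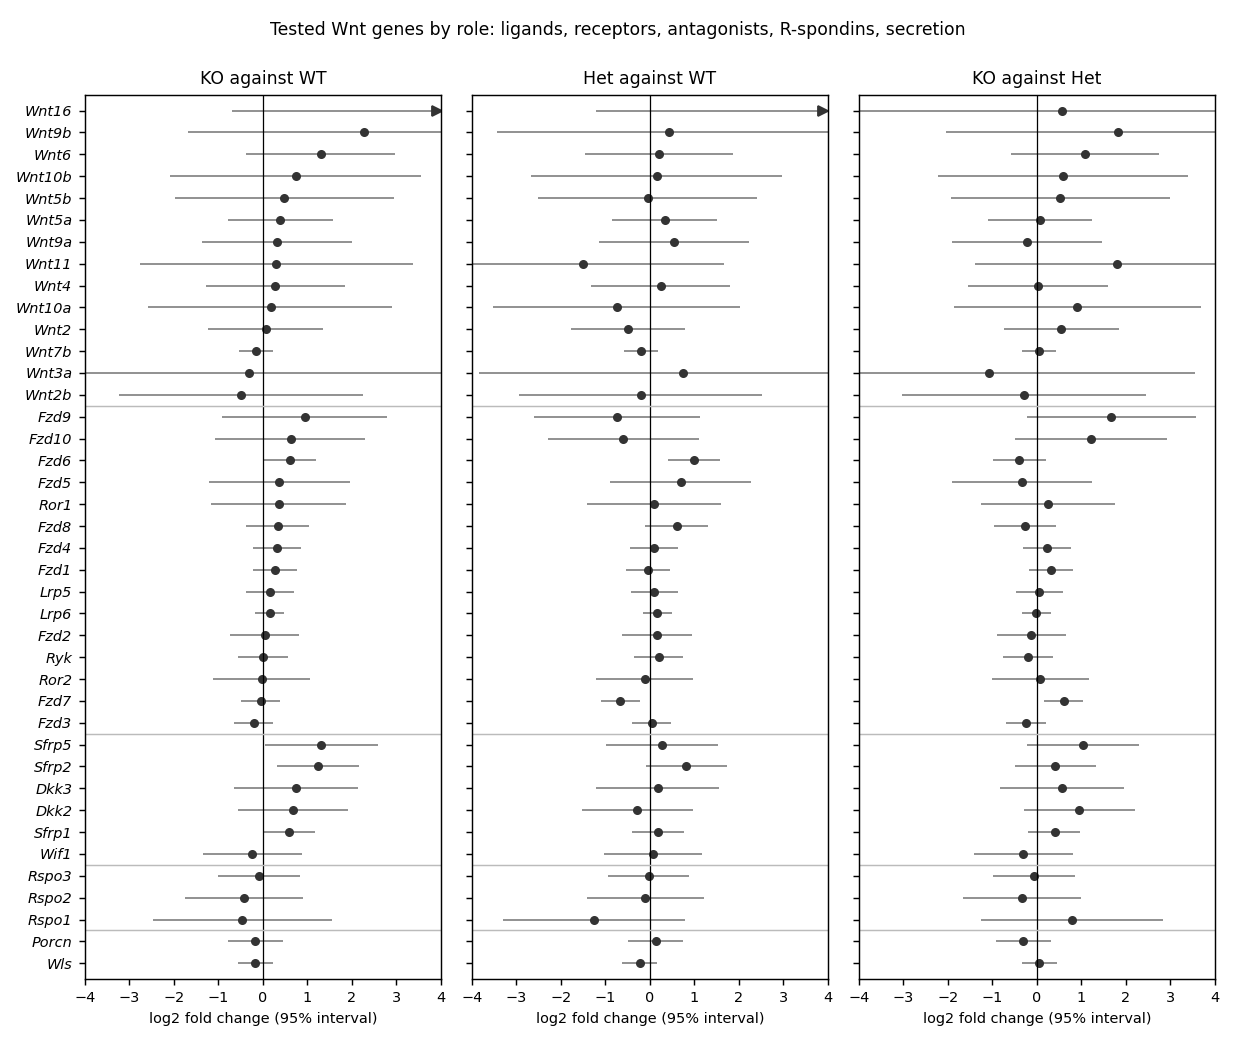
Log2 fold change with 95% interval (horizontal axes, limited to -4 to 4, arrows for points beyond) of the 40 tested genes in the 3 comparisons, grouped by role. Sfrp5, Sfrp2 and Fzd6 have intervals above 0 in KO against WT, Fzd6 above and Fzd7 below 0 in Het against WT, and Fzd7 above 0 in KO against Het. None passed after adjustment.

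In Het against WT the 2 genes that stood apart were both Frizzled receptors, in opposite directions. Fzd6 had a mean of 57.4 ± 19.2 CPM over the Het libraries against 28.9 ± 4.10 over WT (SD, n = 3), a log2FC of 0.99 (SE 0.26, 95% interval 0.40 to 1.58, edgeR unadjusted p = 0.00394, adjusted p = 0.405). Fzd7, a receptor of the beta-catenin branch, averaged 20.7 ± 4.94 against 32.7 ± 1.01 CPM, a log2FC of -0.66 (SE 0.20, -1.10 to -0.22, edgeR unadjusted p = 0.00788, adjusted p = 0.419). DESeq2 gave adjusted p of 0.0595 for Fzd6 and 0.174 for Fzd7. Neither passed the threshold with either tool.

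Fzd7 (chromosome 1, 59482424 to 59486955) was at 31.5, 33.0 and 33.4 CPM in WT, 16.3, 26.0 and 19.7 in Het, and 35.5, 27.7 and 31.5 in KO. The 3 Het libraries were the 3 lowest of the 9. Fzd8, a related receptor, was at 10.7, 9.76 and 8.81 CPM in WT, 20.9, 9.37 and 14.1 in Het, and 9.38, 13.4 and 14.2 in KO, with overlap between all 3 (Het against WT log2FC 0.60, SE 0.32). Sfrp2 had a log2FC of 0.82 (SE 0.41, -0.09 to 1.73) and passed in edgeR only with the seminal vesicle score in the model (1.45, SE 0.28, adjusted p = 0.0402, where 214 of all genes passed). Sfrp5 was at 0.28 (SE 0.56), and at -0.04 without WT 1 and -0.31 without Het 3.

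Of the 40 tested genes 0 were called in Het against WT by edgeR (0% of all genes) and 0 by DESeq2 (1.22% of all genes). Fzd6 and Fzd7 were the 2 at an unadjusted p under 0.05 in edgeR (5% of the 40, against 9.04% of all genes, of which 3.43% higher and 5.61% lower) and in DESeq2 (5%, against 11.1%). The edgeR count was 4 without Het 1 and 6 without Het 2. Het lay wholly above WT for Fzd6 alone (2.5%, against 4.70% of all genes) and wholly below for Fzd7 and Rspo1 (5%, against 8.59%). Each of these shares is below that of all genes. Log2FC was above 0 for 24 of 40 (60%, against 50% of all genes), with a median of 0.10 against 0.00 over all genes. That median was -0.06 without WT 1 and -0.11 without Het 2. Wnt16 had 17 reads in Het, all in Het 1, so Het and WT overlapped. Pooled over Het, these reads were at least 5.92-fold above WT at the same floor of 3 counts. The limit set by the filter applies here too. The median stayed at 0.10 with Wnt16 at that bound.

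KO against Het shares its KO libraries with the first comparison and its Het libraries with the second. Fzd7 averaged 31.6 ± 3.91 CPM in KO against 20.7 ± 4.94 in Het (SD, n = 3; log2FC 0.61, SE 0.20, 0.17 to 1.05, edgeR unadjusted p = 0.0119, adjusted p = 0.665), and KO lay wholly above Het. Fzd9, a low-level Frizzled, was at 1.10, 1.59 and 1.46 CPM in KO, 0.270, 0.413 and 0.607 in Het and 0.993, 0.754 and 0.414 in WT, so KO lay above all 6 others (KO against Het log2FC 1.67, SE 0.85). Dkk2, a Dickkopf protein, was at 4.12, 4.55 and 2.46 CPM in KO, 1.13, 2.25 and 2.32 in Het and 1.20, 2.70 and 3 in WT, with KO above Het only (KO against Het log2FC 0.96, SE 0.56). Sfrp5 had 1.03 (SE 0.56) and Sfrp2 0.42 (SE 0.40), and Sfrp2 turned to -0.70 with the seminal vesicle score in the model and to -0.35 with the skeletal muscle score. With the same scores, Sfrp5 was at 0.15 and 0.44, Dkk2 at 0.10 and 0.29, and Fzd7 at 0.27 and 0.72. Without Het 3, Sfrp5 was at 1.63.

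In KO against Het edgeR called 0 of the 40 (0% of all genes) and DESeq2 0 (1.01%). Fzd7 was the 1 at an unadjusted p under 0.05 in edgeR (2.5%, against 6.22% of all genes, of which 4.42% higher and 1.81% lower), and Fzd7 and Fzd9 were the 2 in DESeq2 (5%, against 7.67%). The edgeR count was 2 without Het 1, 6 without Het 2 and 3 without Het 3. KO lay wholly above Het for 3 (7.5%: Dkk2, Fzd7 and Fzd9, against 7.80%) and wholly below for 0 (against 4.12%). The share wholly above is close to that of all genes. Log2FC was above 0 for 26 of 40 (65%, against 52% of all genes) with a median of 0.16 against 0.02. That median was 0.09 without Het 1, 0.34 without Het 2, 0.06 without KO 3, -0.01 with the skeletal muscle score in the model and -0.17 with the seminal vesicle score.

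Het libraries varied most among themselves. The SD between libraries of log2(CPM + 1) was largest in Het for 26 of the 40 tested genes. It was largest in WT for 9 and in KO for 5, and this count was not made over all genes. The median SD over the 40 was 0.321 in WT, 0.541 in Het and 0.301 in KO. Over all genes tested it was 0.277, 0.405 and 0.238, so Het was the largest there too. Of the 37 tested genes with a single lowest library, Het 1 was lowest for 16 (43.2%, against 21.2% of all such genes), WT 1 for 6 (16.2%, against 7.91%) and KO 2 for 0 (against 4.88%). Wnt4 shows the spread, at 14.2, 118 and 39.6 CPM in Het against 55.3, 67.1 and 52.5 in KO and 32.1, 37.5 and 74.9 in WT. Wnt7b was steadier, at 50.9, 39.1 and 44.7 CPM in WT, 33.1, 45.2 and 38.8 in Het, and 35.2, 43.0 and 43.0 in KO.

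Zeros among the tested genes were all in ligands: 8 of the 14 had 0 reads in at least 1 library, 18 zeros in all, of which 6 were in WT, 9 in Het and 3 in KO. The clearest was Wnt5b, with 0 reads in Het 2, 63 in Het 1 and 82 in Het 3. A ceiling of 3 counts puts Het 2 at up to 0.138 CPM, at least 15.4-fold below the lowest of the other 8 libraries. Wnt3a, a ligand of the beta-catenin branch, had 33 reads in WT 3 and 0 in WT 1 and WT 2, and 26 in KO 3 and 0 in KO 1 and KO 2. Zeros were also commoner outside the Wnt genes in Het. Of 1567 genes with a mean between 3 and 6 CPM, as for Wnt5b, Het libraries lacked 1.66% to 3.32%, WT libraries 0.574% to 1.66% and KO libraries 0%. The other ligands with zeros averaged less, Wnt10a and Wnt10b between 1 and 3 CPM. Wnt2b, Wnt3a, Wnt9b, Wnt11 and Wnt16 averaged under 1 CPM, a level for which no such share was computed. Of 2383 genes with a mean between 1 and 3 CPM, Het libraries lacked 10.7% to 12.4%, WT libraries 1.76% to 7.3% and KO libraries 0.126% to 0.881%.

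Summed markers of several other cell types differed between the groups. Summed fibroblast markers (8 of 8 found, none at 0 in any library) were at 497, 1010 and 783 CPM in WT, 380, 672 and 580 in Het, and 1160, 1000 and 925 in KO. Schwann cell and nerve markers (8 of 8, none at 0) were at 73.3 to 94.0 CPM in WT, 71.8 to 119 in Het and 121 to 172 in KO, so KO lay wholly above WT, as it did for Sfrp2, Sfrp5 and Sfrp1 and for 7 of the 8 single markers. Basal epithelial markers (6 of 6, none at 0) were at 139 to 355 CPM in Het and 369 to 605 in KO, with WT 1 and WT 2 at 189 and 303 and WT 3 above KO 1. Smooth muscle markers (8 of 8, none at 0) were at 3210 to 6730, 1200 to 7690 and 4350 to 6060 CPM, and seminal vesicle markers (7 of 7, Svs1 at 0 in Het 1) at 31000 to 220000, 6590 to 359000 and 95000 to 191000 CPM. Svs2 and Svs5 made up most of that sum. Of the 7, 3 less abundant members lay wholly above WT in KO: Svs4 (12000 to 34700 against 651 to 10900 CPM), Svs6 (3280 to 4490 against 13.3 to 1890) and Svs3a (1220 to 2620 against 1.99 to 970). For Svs1, Svs2, Svs5 and Pate4 the KO and WT libraries overlapped. Svs2 was at 32300 to 77400 CPM in KO against 14800 to 128000 in WT. The KO against WT log2FC was -0.34 for Svs2, -0.18 for Pate4, 0.42 for Svs5 and 2.31 for Svs1.

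Skeletal muscle markers (10 of 10, with Myh1, Myh4, Pvalb or Tnnt3 at 0 in some libraries) were at 342 to 1330 CPM in WT, 144 to 661 in Het and 753 to 5270 in KO. Acta1 made up most of this sum except in KO 2. Tnnt3, Myh1, Tnni2 and Mylpf were at 0 to 2.17 CPM in WT 1, WT 2 and Het. They were at 28.5 to 50.7 CPM in WT 3 and 15.7 to 519 in KO. Acta1 and Ckm were less apart, and of the 10 only Myh2 had KO wholly above WT. Endothelial markers (8 of 8, none at 0) were at 66.8 to 108, 29.9 to 47.2 and 67.7 to 153 CPM, so Het lay wholly below both, as it did for Fzd7 and for 3 of the 8 single markers (Emcn, Plvap and Vwf). Macrophage markers (6 of 6, none at 0) did likewise, at 68.4 to 99.5, 36.3 to 55.4 and 65.8 to 102 CPM, although of the single markers only C1qa did. Urothelial markers (6 of 6, with Krt20 or Upk3a at 0 in some libraries) were at 127 to 305 CPM in WT, 354 to 412 in Het and 343 to 380 in KO, but the single markers did not move together. None of the 6 had WT wholly below both other genotypes. Upk1a and Upk1b made up most of the sum, and Upk1b was at 105 to 195 CPM in WT and 90.8 to 122 in Het, while Upk2, Upk3a and Upk3b were lowest or at 0 in Het 1. Adipocyte markers (6 of 6, Lep at 0 in some libraries) ran from 26 CPM in WT 3 to their highest in WT 2, with 108 to 193 in Het and 171 to 250 in KO, secretory luminal markers (8 of 8, none at 0) at 11500 to 70200, 4810 to 154000 and 44200 to 63300, and proximal luminal markers (6 of 6, none at 0) at 537 to 2640, 271 to 4400 and 1590 to 1790. The part of these markers in the Wnt gene values was not tested, apart from the covariate values given for seminal vesicle and skeletal muscle.

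**Figure D5:**
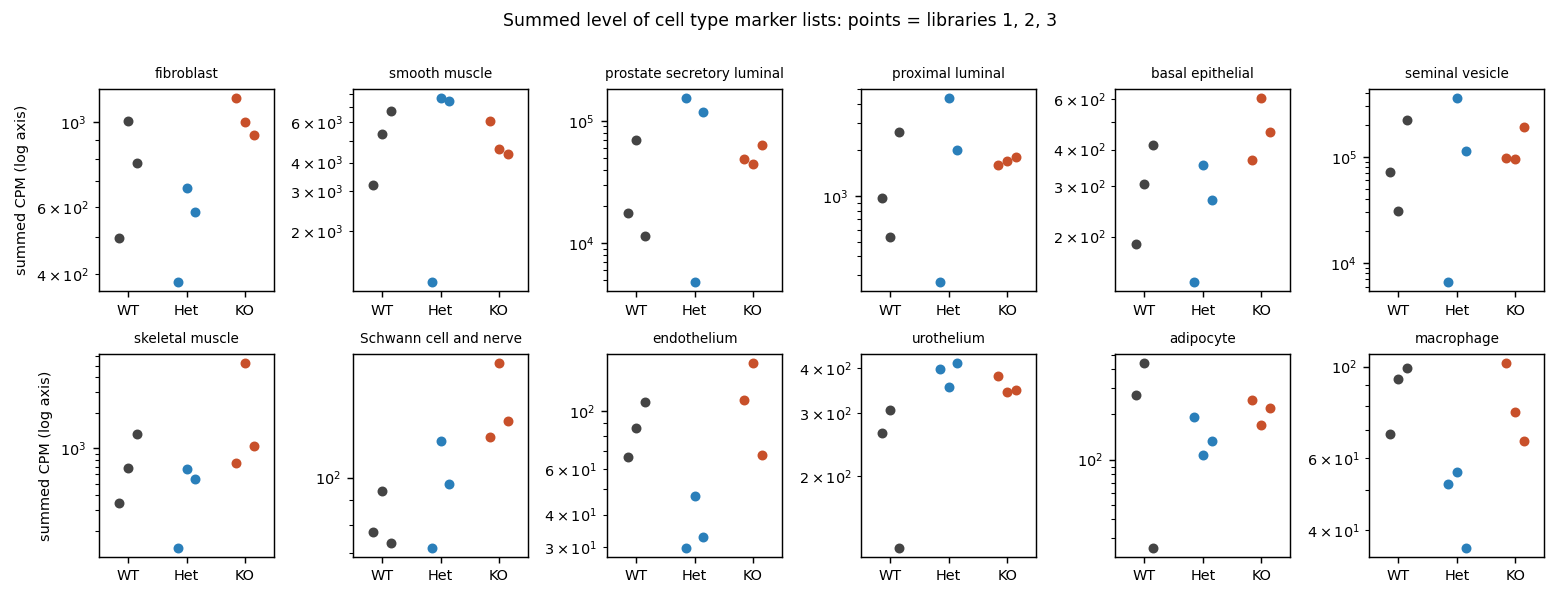
Summed CPM (log axes, scaled separately) of 12 lists of cell type markers, with 1 point per library by genotype. KO points lie above WT for Schwann cell and nerve markers and Het points lie below both for endothelial and macrophage markers. A sum can rest on 1 or 2 abundant genes of its list.

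The other 51 genes of the pathway that were listed act outside, at the surface of or inside the cell, and 50 were tested. Both edgeR and DESeq2 called 0 of them in each comparison, and DESeq2 had 2, 6 and 4 at an unadjusted p under 0.05 (4%, 12% and 8%, against 4.94%, 11.1% and 7.67% of all genes). In KO against WT 2 were at an unadjusted edgeR p under 0.05 (3.57% of all genes were): Daam2, a formin that binds Dishevelled, at 8.89, 9.89 and 11.0 CPM in KO against 3.45, 3.86 and 3.99 in WT (log2FC 1.40, SE 0.43), and Nkd1, a feedback inhibitor, at 86.1, 68.5 and 64.5 against 152, 88.9 and 92.6 CPM (-0.61, SE 0.24). In Het against WT 5 were (9.04% of all genes were), 3 higher and 2 lower, with Nkd1 (-0.95, SE 0.24), Tcf7l1, a repressive partner of beta-catenin (0.75, SE 0.21), Ctnnb1, beta-catenin itself (0.38, SE 0.14), and Dvl1, a Dishevelled protein (-0.56, SE 0.22), having the smallest p. Nkd1 lay below WT in all 6 Het and KO libraries. In KO against Het 4 were (6.22% of all genes were): Dvl3 (-0.50, SE 0.19), Daam2 (1.11, SE 0.43), Dvl1 (0.55, SE 0.22) and Lgr5, an R-spondin receptor (1.12, SE 0.47). The median log2FC of the 50 was 0.11, 0.15 and -0.05 in the 3 comparisons. Lef1, the transcription factor in the series title, was at 2.66, 3.41 and 6.99 CPM in WT, 1.51, 10.9 and 3.42 in Het, and 5.93, 3.13 and 2.82 in KO, and the 3 genotypes overlapped (KO against WT log2FC -0.14, 95% interval -1.70 to 1.43).

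Strand was not recorded for the counting, so reads of a gene and of an antisense neighbour that share exon bases cannot be told apart. Of the 48 genes 7 share exon bases with a gene on the other strand in GENCODE vM21. For Wnt7b the neighbour AU022754 shares 324 bases and had 4957 reads over the 9 libraries beside 7240 for Wnt7b. For Wnt5a the neighbour Gm2670 shares 358 of 7823 exon bases and had 71 reads beside 4106, and for Sfrp2 Gm26771 had 6 beside 2425.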

How the data were processed

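PolyA-selected RNA of 9 mouse prostate samples, 3 per genotype, was sequenced, per the labels' protocols. The authors deposited raw counts per gene and, as a second table, FPKM per gene, normalised for gene length and library total. The builds GRCm38 and mm10 are named in the submitters' processing notes, while aligner, counter and strand setting were not given in the sources used here. No use was made of the authors' table of group means.

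Counts were tested with edgeR 4.0.16 (R 4.3.3; TMM scaling, filterByExpr, robust quasi-likelihood test) in 1 model of all 9 libraries, with Benjamini-Hochberg adjustment over 16836 genes and a threshold of 0.05. Intervals are 95% intervals of the fitted log2 fold change. CPM uses TMM-scaled library totals, and between-gene levels use FPKM. Alternatives were DESeq2 1.42.0, limma 3.58.1 on log2(FPKM + 0.1), other scaling and filters, 2 genotypes alone, libraries with at least 100 CPM of Sbp, marker scores as covariates, and leaving out each library. Scripts were tested on simulated data. Libraries are numbered in accession order, which pairs nothing.

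Members and lists were chosen with earlier results of these data known. Values in every library are given for Wnt5a, Sfrp2, Sfrp5, the 4 genes of smallest p per comparison and the 2 of highest mean FPKM per role. Wnt5b, Wnt3a and Wnt16 were singled out after their values were seen, and Lef1 because the title names it.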

Additional observations from a re-analysis of the deposited data

How the results depend on the processing

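No paired analysis was possible because the library numbers follow accession order and mark no shared animal, litter or day. Leaving out each library in turn called 0 of the tested Wnt genes in each comparison, and so did the 9 other settings, except that the seminal vesicle score as a covariate called 1 (Sfrp2) in Het against WT. Sfrp2, Sfrp5, Fzd6 and Sfrp1 in KO against WT, Fzd6 and Fzd7 in Het against WT, and Fzd7, Fzd9 and Dkk2 in KO against Het kept their direction under all 18 settings, but not their size. In KO against WT Sfrp2 ranged from 0.75 to 1.78 and Sfrp5 from 0.86 to 1.65, and in KO against Het Fzd7 ranged from 0.27 to 0.82 and Dkk2 from 0.10 to 1.19, with the lowest of Sfrp2, Fzd7 and Dkk2 under the seminal vesicle score.

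The number at an unadjusted p under 0.05 in KO against WT was 5 with only those 2 genotypes, 1 with the 6 libraries of at least 100 CPM of Sbp, 0 with the skeletal muscle score and 1 to 6 leaving out a library. In Het against WT it was 7 with the seminal vesicle score and 2 to 6 leaving out a library. In KO against Het it was 2 with DESeq2, 2 with limma, 6 with the Sbp libraries, 0 with the skeletal muscle score, 8 with the seminal vesicle score and 1 to 6 leaving out a library. The Sbp setting leaves 1 WT library, which is assumed to vary like the other groups.

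The median log2 fold change turned to -0.22 in KO against WT and -0.17 in KO against Het with the seminal vesicle score, and was 0.12 and -0.01 there with the skeletal muscle score. With the Sbp libraries it was -0.14 in Het against WT and 0.35 in KO against Het. Leaving out a library gave -0.11 to 0.18 in Het against WT and 0.06 to 0.34 in KO against Het.

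Wnt5a turned to -0.38 in KO against WT and to -1 in KO against Het with the seminal vesicle score, and to -0.14 in Het against WT with the Sbp libraries. Leaving out a library gave it -0.14 to 0.78 in Het against WT and -0.38 to 0.52 in KO against Het. Sfrp5 in Het against WT was -0.06 with the Sbp libraries and -0.31 to 0.63 leaving out a library. Sfrp2 in KO against Het was -0.35 with the skeletal muscle score and -0.70 with the seminal vesicle score. The cause was not tested for these changes. Genes under about 1 CPM rest on few reads, and 3 libraries per group limit every comparison.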
